A study of Sus scrofa with 12 samples.

Results

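The insulin-like growth factor (IGF) axis was described in pig heart after ischemia-reperfusion injury, in the border zone of the infarct and in the remote zone. The rule listed 10 genes by name. The list was drawn up with earlier results of these data known. It held the ligands IGF1 and IGF2, the receptor IGF1R, the binding proteins IGFBP2, IGFBP3, IGFBP4, IGFBP5, IGFBP6 and IGFBP7, and the protease PAPPA. Of these, 8 were matched to a gene identifier among the 35682 genes counted, while IGF2 and IGFBP3 had no match in the symbol table and were not analysed here.

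IGF1 is a secreted growth factor that acts through the receptor tyrosine kinase IGF1R, which signals through PI3K-AKT and RAS-ERK to promote growth and survival of cells, cardiomyocytes among them. In tissue, most IGF is held by binding proteins, which can block the ligand, store it in the matrix or carry it to the cell surface. PAPPA is a secreted metalloprotease that cuts IGFBP4 and IGFBP5 and so frees bound IGF, and the stanniocalcins STC1 and STC2 inhibit it. Fibroblasts and macrophages are known sources of IGF1 in the injured heart.

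The tissue came from 6 female Yorkshire pigs aged 10 to 12 weeks at the start, with animal numbers 1022, 1322, 1323, 1623, 1922 and 3622. In all animals a balloon blocked the left anterior descending coronary artery for 60 min, immunosuppression began on day 9, with daily doses of 20 mg prednisolone, 500 mg mycophenolate mofetil and, per kg, 0.75 mg tacrolimus, and the chest was opened on day 14 for either scaffold-free EPC-SMC vascular organoids of human cells, held in place with fibrin glue, or fibrin glue alone. Hearts were taken 28 days later, the border zone from beside the infarct and the remote zone from the posterior wall. Each animal gave 1 border zone and 1 remote zone library, both from the mid level, so each region holds 6 libraries. The labels do not tell which animal received which treatment, so each region mixes both treatments, both regions come from injured hearts, and neither is uninjured tissue.

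Total counts per library were 15130210 to 31618680. The border zone library of animal 3622 had the lowest total and stood apart by holding counts for 28024 genes, against 16932 to 20148 in the other libraries. The border zone library of animal 1022 also stood apart. Its summed level over 15 fibroblast and matrix markers was 77770 CPM (counts per 1000000 after TMM scaling of the library size), against 3922 to 13410 CPM in the other border zone libraries and 1432 to 3529 CPM in remote zone libraries. Its sum over 12 cardiomyocyte markers, all of which had counts in every library, was 14610 CPM, against 51350 to 114900 CPM elsewhere. In bulk tissue, fewer cells of a type and less RNA per cell cannot be told apart.

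IGFBP2, IGFBP3, IGFBP4 and IGFBP5 share a pair of cysteine patterns that the naming rule did not use. The codons are shown for the genes with counts. Of the pair, the pattern near the amino end had no match in IGFBP6 or IGFBP7. The pattern near the carboxy end had none in IGFBP7 only. The pattern near the amino end is glycine, cysteine, glycine, cysteine, cysteine, any 2 residues, cysteine, and that near the carboxy end is cysteine, tryptophan, cysteine, valine. Coding sequences were read from RefSeq annotation on Sscrofa11.1, on the coding strand, and cysteine codons are in capitals.
IGFBP2 amino end, chr15:118822388-118822411, plus strand: ggcTGCggcTGCTGCtctgtgTGC
IGFBP4 amino end, chr12:21979864-21979887, minus strand: ggcTGCggcTGTTGCgccactTGC
IGFBP5 amino end, chr15:118877614-118877637, minus strand: ggcTGCggcTGCTGCatgaccTGC
IGFBP2 carboxy end, chr15:118850494-118850505, plus strand: TGCtggTGCgtg
IGFBP4 carboxy end, chr12:21966614-21966625, minus strand: TGCtggTGTgtg
IGFBP5 carboxy end, chr15:118862054-118862065, minus strand: TGCtggTGCgtg
IGFBP6 carboxy end, chr5:18356935-18356946, plus strand: TGCtggTGTgtg

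IGFBP6 had the carboxy pattern but no match to the amino pattern as written, and IGFBP7 matched neither. Among 20648 RefSeq coding genes, the amino pattern occurred in 8 (0.0387%) and the carboxy pattern in 17 (0.0823%). IGFBP2 and IGFBP5 are neighbours on chromosome 15, tail to tail on opposite strands with 10830 bases between them. Their coding sequences hold 316 and 271 codons before the stop, those of IGFBP4, IGFBP6 and IGFBP7 hold 259, 236 and 282, and all 5 hold between 16 and 21 cysteine codons.

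The regions were compared by the quasi-likelihood test of edgeR with region as the only term, with p adjusted by Benjamini-Hochberg over the 13844 genes tested, and a call is an adjusted p under 0.05. All 8 members had a log2 fold change above 0, with a median of 1.10, while the median of all genes tested was 0.04. Of the 8, 1 was called (IGF1), higher in the border zone. Over all genes tested, 2.07% were called, and 2.06% were called and higher in the border zone. At an unadjusted p under 0.05, 5 of 8 members passed, against 24.7% of all genes. All 6 border zone libraries were above all 6 remote zone libraries for 2 members (IGF1 and PAPPA), against 1.99% of all genes. The border zone was higher in 6 of 6 animals for 3 members (IGF1, IGFBP6 and PAPPA), against 11.7% of all genes. When the animal entered as a replicate block, 0 of 8 members were called, against 0.296% of all genes, and 5 of 8 passed at an unadjusted p under 0.05, against 29.4% of all genes. DESeq2 called 4 of the 8, against 10.3% of the 16688 genes to which it gave an adjusted p. Scaling by library totals also called 4, against 11.2% of the 13844 genes. In each case these were IGF1, IGFBP4, IGFBP6 and PAPPA. These counts include PAPPA, which passed the filter on low counts through its border zone libraries, so they are descriptions. Without it, 1 of 7 members was called, 4 of 7 passed at an unadjusted p under 0.05 in the region-only fit and 4 of 7 with the block, 1 did not overlap (IGF1), 2 were higher in 6 of 6 animals (IGF1 and IGFBP6), and DESeq2 and library totals each called 3.

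**Figure D1:**
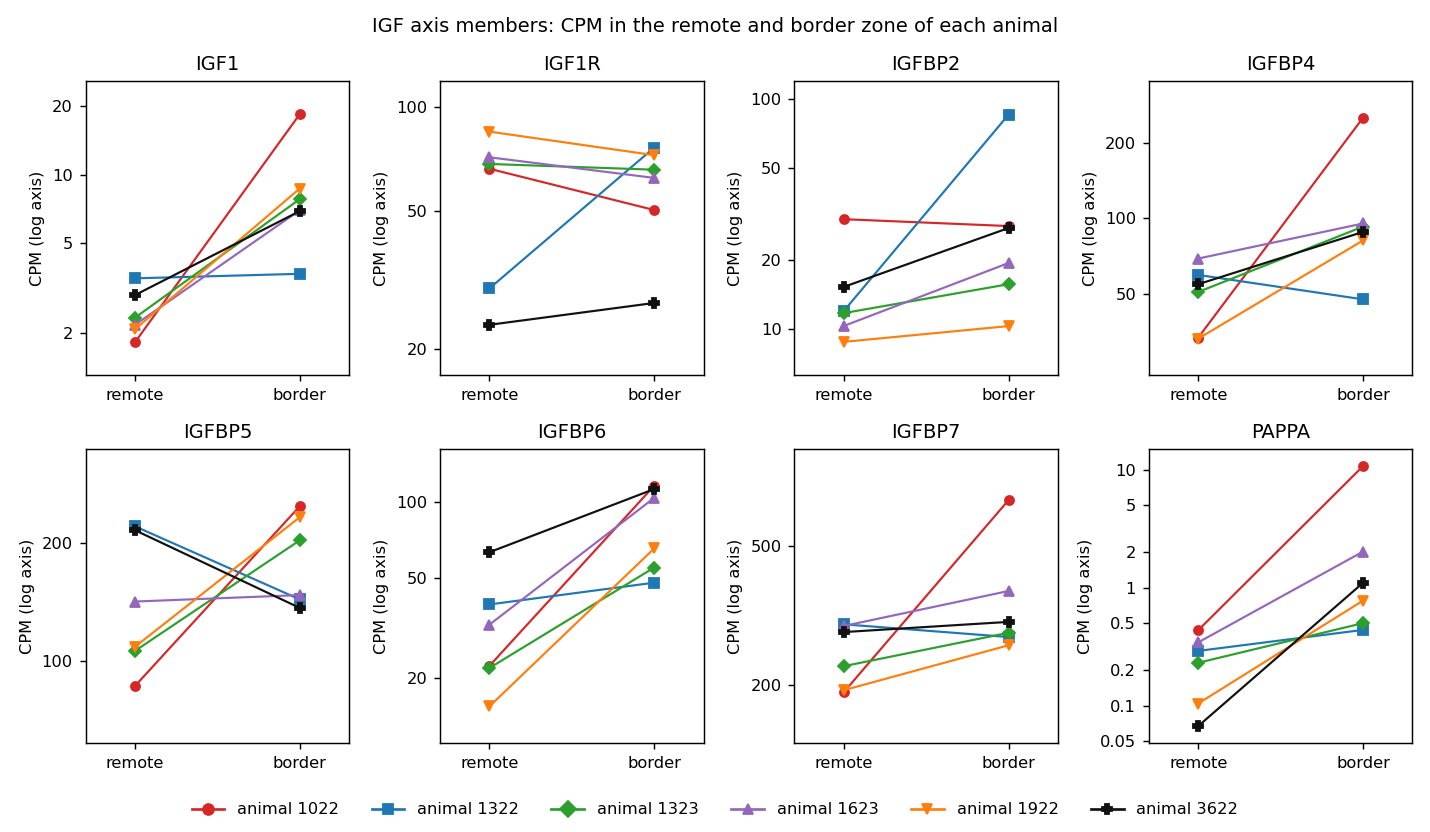
CPM of the 8 members (log axis) in the remote and border zone, with 1 line per animal joining its 2 libraries. IGF1, IGFBP6 and PAPPA are higher in the border zone in all 6 animals, IGFBP5 is lower there in animals 1322 and 3622, and IGFBP2 and IGF1R are highest in the border zone for animal 1322.

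The ligand IGF1 (ENSSSCG00000000857, chromosome 5, 81762027 to 81909253, plus strand) rose in the border zone by a log2 fold change of 1.83 ± 0.34 (SE), a 3.55-fold difference with a 95% interval of 2.15 to 5.85 (adjusted p = 0.0276). Its level in the border zone was lowest at 3.65 CPM in animal 1322, had a median of 7.39 CPM and was highest at 18.5 CPM in animal 1022. In the remote zone the lowest level was 1.82 CPM, also in animal 1022, the median 2.26 CPM and the highest 3.49 CPM, in animal 1322. The ranges did not overlap, but the gap was narrow and lay within animal 1322, whose border and remote zone differed by 1.05-fold (75 and 72 reads).

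Within animals, the IGF1 ratio of border to remote zone was 10.2 in animal 1022, 4.18 in animal 1922, 3.34 in animal 1323, 3.21 in animal 1623 and 2.35 in animal 3622. So 5 of the 6 animals showed more than a 2-fold difference and animal 1322 did not. When the animal entered as a replicate block the log2 fold change was 1.69 ± 0.38 and the call was lost (adjusted p = 0.0773). Without animal 1022, the animal with the largest difference, it was 1.38 and the call remained (adjusted p = 0.0276). The call was lost without animal 1323, 1623, 1922 or 3622 (adjusted p = 0.118, 0.108, 0.0825 and 0.0839), although the log2 fold change stayed between 1.78 and 1.93.

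The receptor IGF1R (ENSSSCG00000030560, chromosome 1, 137383623 to 137691038, minus strand) did not pass the test, with a log2 fold change of 0.04 ± 0.32 and a 95% interval of -0.65 to 0.73 (adjusted p = 0.952). It ranged from 27.1 CPM in animal 3622 to 76.3 CPM in animal 1322 in the border zone (median 64.1) and from 23.5 CPM in animal 3622 to 84.8 CPM in animal 1922 in the remote zone (median 67.4). The regions overlapped over most of their range, and the border zone was higher in 2 of 6 animals. Animal 3622 was lowest in both regions. Animal 1322 alone gave a large difference, with a ratio of 2.55, while the other 5 lay between 0.76 and 1.16. Without animal 1322 the direction reversed, with a log2 fold change of -0.18 (adjusted p = 0.749). The libraries were nondirectional, and 843 of the 12357 exon bases of IGF1R in RefSeq lie opposite exons of PGPEP1L, so reads there could belong to either gene.

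Among the binding proteins, which were tested for IGFBP2, IGFBP4, IGFBP5, IGFBP6 and IGFBP7, 0 of 5 were called by edgeR and 3 passed at an unadjusted p under 0.05, against 2.07% and 24.7% of all genes. All 5 log2 fold changes were above 0, from 0.34 to 1.36, as were those of 7385 of the 13844 genes tested. IGFBP6 came nearest to the threshold and IGFBP5 was farthest from it.

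IGFBP6 (ENSSSCG00000000261, chromosome 5, 18352884 to 18357225, plus strand), which binds IGF2 more tightly than IGF1, had a log2 fold change of 1.36 ± 0.34, a 2.57-fold difference with a 95% interval of 1.55 to 4.26 (adjusted p = 0.0509). In the border zone it was 47.9 CPM at its lowest, in animal 1322, 84.7 CPM at the median and 116.0 CPM at its highest, in animal 1022. In the remote zone it was 15.5 CPM at its lowest, in animal 1922, 27.5 CPM at the median and 63.3 CPM at its highest, in animal 3622. The regions overlapped only through the remote zone library of animal 3622, which had a low TMM factor (0.67). Within animals the border zone was higher in 6 of 6, by 1.22-fold in animal 1322 up to 5.18-fold in animal 1022. The log2 fold change stayed between 1.15 and 1.54 when each animal was left out, with an adjusted p from 0.0528 to 0.17. It passed the test by DESeq2 (adjusted p = 0.00731) and with library totals (adjusted p = 0.0149).

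IGFBP4 (ENSSSCG00000017472, chromosome 12, 21966524 to 21980043, minus strand), an inhibitory binding protein and the main substrate of PAPPA, had a log2 fold change of 1.12 ± 0.34, a 2.18-fold difference (95% interval 1.31 to 3.64, adjusted p = 0.0863). Its border zone levels ran from 47.7 CPM in animal 1322 through a median of 90.6 CPM to 251.3 CPM in animal 1022. Those of the remote zone ran from 33.3 CPM in animal 1922 through 52.9 CPM to 69.3 CPM in animal 1623. Apart from animal 1322, each border zone library was above all 6 remote zone libraries. Animal 1022 decided much of its size, with a ratio of 7.49 against 0.80 to 2.46 in the others, and without it the log2 fold change was 0.59 (adjusted p = 0.21). DESeq2 and library totals put IGFBP4 past the threshold (adjusted p = 0.0319 and 0.0328).

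IGFBP2 (ENSSSCG00000035392, chromosome 15, 118822092 to 118850985, plus strand) had a log2 fold change of 1.08 ± 0.47, a 2.12-fold difference (95% interval 1.06 to 4.24, adjusted p = 0.175). Its border zone levels were 10.3 CPM in animal 1922, 23.4 CPM at the median and 85.8 CPM in animal 1322, and its remote zone levels were 8.79 CPM in animal 1922, 11.8 CPM at the median and 30.1 CPM in animal 1022. The animal that decided its size was 1322, with a ratio of 7.17, while the others lay between 0.93 and 1.88. Without animal 1322 the log2 fold change was 0.39 (adjusted p = 0.501).

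IGFBP5 (ENSSSCG00000025924, chromosome 15, 118861816 to 118877787, minus strand), which binds matrix proteins as well as IGF, did not pass, with a log2 fold change of 0.34 ± 0.27 and a 95% interval of -0.23 to 0.91 (adjusted p = 0.449). It ranged from 136.6 to 248.2 CPM in the border zone (median 175.2) and from 86.4 to 220.6 CPM in the remote zone (median 125.3), and the regions overlapped. The animals went in both directions. The ratio was 2.87 in animal 1022, 2.14 in animal 1922, 1.91 in animal 1323 and 1.04 in animal 1623, but 0.65 in animal 1322 and 0.63 in animal 3622. The remote zone libraries of animals 1322 and 3622 were the highest of that region, and both also had low TMM factors (0.81 and 0.67, against 0.96 to 1.07 in the other remote zone libraries).

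IGFBP7 (ENSSSCG00000008913, chromosome 8, 56283089 to 56357822, minus strand), a secreted protein of vessel walls and matrix that binds IGF weakly, had a log2 fold change of 0.54 ± 0.25 and a 95% interval of -0.0037 to 1.09 (adjusted p = 0.205). Its levels were 260.6 to 677.2 CPM in the border zone (median 293.4) and 191.4 to 299.1 CPM in the remote zone (median 255.6). The border zone library of animal 1022 lay far above the other 5, which reached 372.4 CPM. Animal 1022 had a ratio of 3.54 and the others 0.92 to 1.34, and without it the log2 fold change was 0.19 (adjusted p = 0.614). Of its 1120 exon bases in RefSeq, 251 lie opposite exons of POLR2B, which was at 36.6 to 66.2 CPM in the border zone and 31.5 to 63.9 CPM in the remote zone (log2 fold change -0.08, adjusted p = 0.85).

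The protease PAPPA (ENSSSCG00000005498, chromosome 1, 256544496 to 256784813, plus strand) had the largest log2 fold change of the 8 members, 3.35 ± 0.84, with a 95% interval of 1.55 to 5.15 (adjusted p = 0.0509). It was also the member with the fewest reads, 9 to 326 in the border zone libraries and 1 to 11 in the remote zone. The level in the border zone was 0.44 CPM at its lowest, in animal 1322, 0.94 CPM at the median and 10.8 CPM at its highest, in animal 1022. The remote zone held 0.0669 CPM at its lowest, in animal 3622, 0.26 CPM at the median and 0.44 CPM at its highest, in animal 1022. The ranges met without overlapping, at 0.438 CPM in the border zone of animal 1322 and 0.436 CPM in the remote zone of animal 1022, a difference far below what 9 and 11 reads can resolve.

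PAPPA passed the filter on low counts through the border zone, where all 6 libraries reached the minimum of 0.419 CPM before TMM scaling, against 1 in the remote zone, so its place among the genes tested already rested on the border zone. Within animals the ratio of border to remote zone was 24.7 in animal 1022, 16.5 in animal 3622, 7.47 in animal 1922, 5.9 in animal 1623, 2.17 in animal 1323 and 1.51 in animal 1322. Of the CPM summed over the border zone, 69% lay in animal 1022, and without it the log2 fold change was 2.14 (adjusted p = 0.0998). Without animal 1322 the gene passed (3.60, adjusted p = 0.0496), and without animal 1323 or 1623 it fell under the filter and was not tested. DESeq2 and library totals put it past the threshold (adjusted p = 0.00155 and 0.026).

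**Figure D2:**
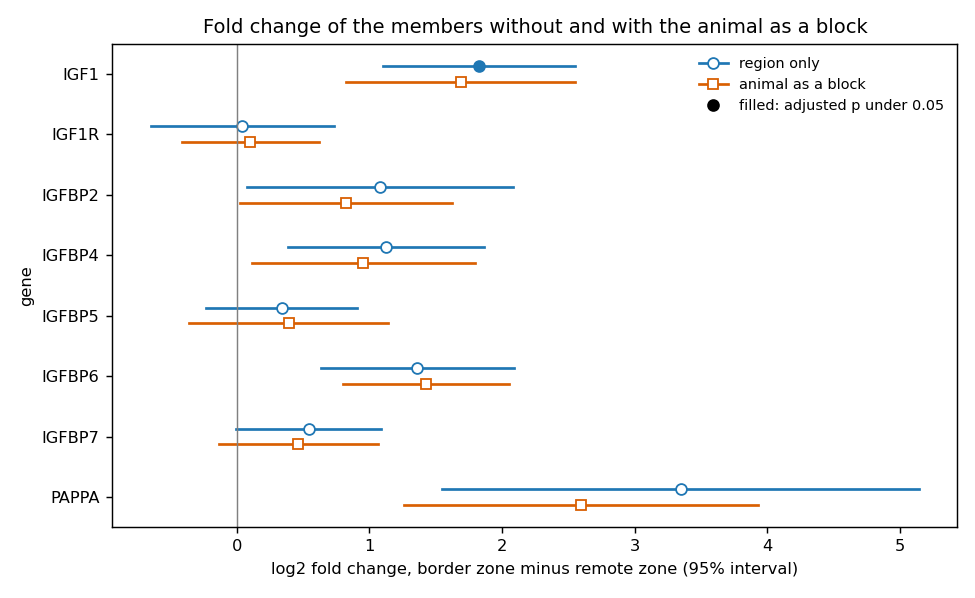
Log2 fold change, border zone minus remote zone, with 95% intervals, for the region-only fit (circles) and with the animal as a replicate block (squares). A filled symbol marks an adjusted p under 0.05, which only IGF1 in the region-only fit reached (1.83, and 1.69 with the block), and the intervals of IGF1R, IGFBP5 and IGFBP7 include 0.

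**Figure D3:**
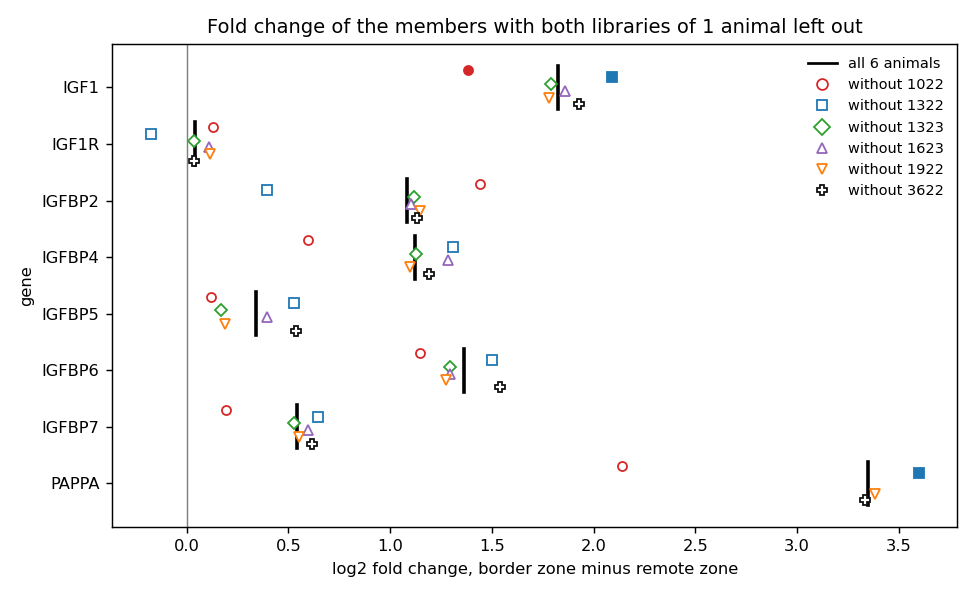
Log2 fold change of each member with all 6 animals (black bar) and with both libraries of 1 animal left out (symbols, filled where the adjusted p was under 0.05). Without animal 1022 the values of IGF1, IGFBP4, IGFBP5, IGFBP6, IGFBP7 and PAPPA are lowest, and without animal 1322 those of IGFBP2 and IGF1R are.

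The animals did not rank alike for all members. The border zone library of animal 1022 was the highest of all 12 for 6 of the 8 members (IGF1, IGFBP4, IGFBP5, IGFBP6, IGFBP7 and PAPPA). The highest of all 12 was the border zone library of animal 1322 for IGFBP2 and the remote zone library of animal 1922 for IGF1R. Over the 12 libraries, Pearson's r of log2 CPM was 0.93 between IGFBP4 and IGFBP7, 0.91 between IGF1 and IGFBP4, and 0.86 between IGFBP4 and its protease PAPPA. For IGF1R with the other 7 it ran from -0.45 to 0.03, and for IGFBP2 from -0.11 to 0.35. PAPPA and IGFBP7 had an r of 0.97 within the 6 border zone libraries and -0.04 within the 6 remote zone libraries. These correlations are descriptions, since the libraries share animals, regions and the high library of animal 1022.

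The genes whose log2 CPM was most like that of a member over the 12 libraries were COL3A1, EPHB3 and SSC5D for IGF1 (r = 0.984, 0.981 and 0.98) and NFIA, FAM222B and TNS1 for IGF1R (r = 0.986, 0.979 and 0.975). For IGFBP4 they were FKBP10, DZIP1 and NAV3 (r from 0.971 to 0.977), for IGFBP6 UCHL1 and ITGBL1 (0.943 and 0.934), for IGFBP7 ARMC10, ACSL5 and SLC38A6 (0.97 to 0.975) and for PAPPA CD109, PTN and FMNL2 (0.967 to 0.971). IGFBP5 was nearest to HTRA3, APOA1 and CD93 (0.915 to 0.943). IGFBP2 had the least similar partners, NEB, CRACD and RPS6KL1 (0.787 to 0.839).

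Levels of some cell type markers moved with the members. All 15 fibroblast and matrix markers had a log2 fold change above 0 and 11 were called, against 2.07% of all genes, but 1 (POSTN) was called with the animal as a replicate block. Their summed level was above that of the remote zone in 6 of 6 animals, with a median of 10070 CPM against 2132 CPM in the remote zone. IGF1 followed this sum with an r of 0.97 over the 12 libraries, 0.97 without the border zone library of animal 1022, 0.98 within the border zone and 0.67 within the remote zone. For IGFBP4 the r over 12 libraries was 0.93, for PAPPA 0.86, for IGFBP7 0.85, for IGFBP6 0.81 and for IGFBP5 0.66, while IGFBP2 and IGF1R had 0.20 and -0.07. Within the remote zone, where PAPPA had at most 11 reads, the r was -0.62 for PAPPA, 0.68 for IGFBP4, 0.78 for IGFBP7, 0.83 for IGFBP6, 0.84 for IGFBP5, -0.37 for IGFBP2 and -0.71 for IGF1R. Without the border zone library of animal 1022, IGFBP7 and PAPPA dropped to 0.62 and 0.67. Border zone animal 1322, lowest of its region for IGF1, IGFBP4, IGFBP6 and PAPPA, was also lowest for the fibroblast and matrix sum, at 3922 CPM, and highest for the cardiomyocyte sum, at 81730 CPM.

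**Figure D4:**
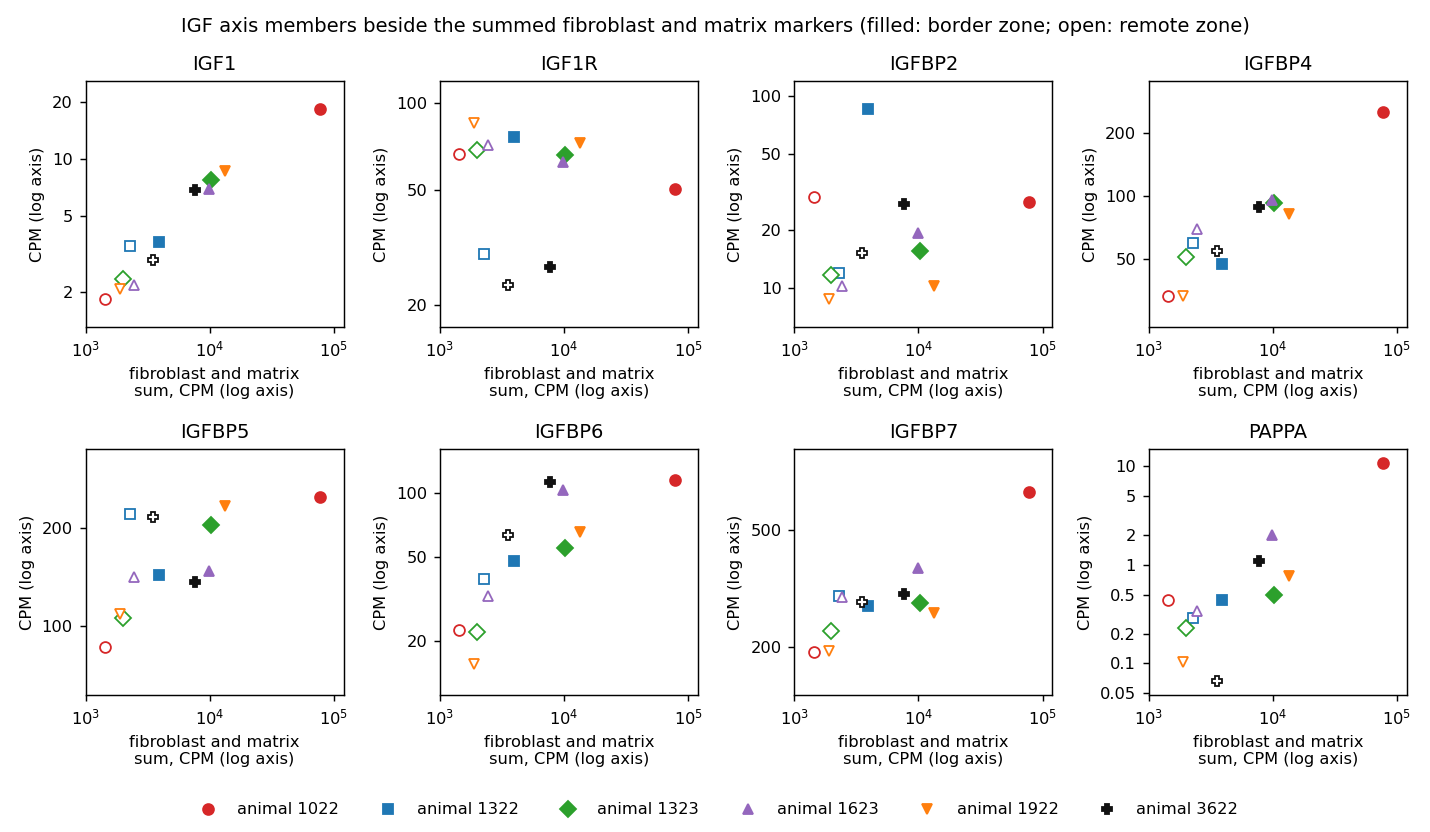
CPM of each member against the summed CPM of 15 fibroblast and matrix markers (both log axes), 1 symbol per library, filled for the border zone and open for the remote zone. IGF1 and IGFBP4 line up with the marker sum, the border zone of animal 1022 lies far to the right at 77770 CPM, and IGFBP2 and IGF1R show no such line.

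The 15 macrophage markers summed to 171.3 to 2018 CPM in the border zone and 155.3 to 319.2 CPM in the remote zone, and the border zone sum was the higher one in 5 of 6 animals, with 0 of 14 tested called by edgeR and 13 past an unadjusted p under 0.05 (24.7% of all genes). IGFBP7, IGFBP4 and PAPPA had an r of 0.90, 0.89 and 0.86 with that sum over 12 libraries, and IGF1 had 0.81, and without the border zone library of animal 1022 these were 0.68, 0.73, 0.59 and 0.65. IGFBP6 went from 0.74 to 0.83 without that library, the highest of the 8 members there. IGFBP5, IGFBP2 and IGF1R had 0.49, 0.23 and -0.29 over 12 libraries and 0.28, 0.10 and -0.48 without it. The 13 endothelial markers summed to 610.3 to 1057 CPM in the border zone and 459.9 to 1066 CPM in the remote zone, and the border zone sum was the higher one in 3 of 6 animals. IGFBP5 had an r of 0.88 with the endothelial sum, with 0.86 without the border zone library of animal 1022, above its 0.66 with the fibroblast and matrix sum, but within the border zone the order was the opposite, 0.61 against 0.77. The cardiomyocyte sum was lower in border than in remote tissue in 6 of 6 animals (median 58680 against 77890 CPM). With that sum, r over 12 libraries was -0.90 for PAPPA, -0.84 for IGFBP4, -0.79 for IGFBP7 and -0.77 for IGF1. Without the border zone library of animal 1022 these were -0.75, -0.58, -0.22 and -0.58. IGFBP6, IGFBP5, IGFBP2 and IGF1R had -0.50, -0.32, -0.20 and -0.18 over 12 libraries, and -0.32, 0.11, -0.01 and -0.50 without it. Within the remote zone, IGF1 had 0.82 with this sum and 0.94 with the endothelial sum, against 0.67 with the fibroblast and matrix sum. By edgeR, 0 of 12 cardiomyocyte, 0 of 13 endothelial, 0 of 14 smooth muscle and pericyte, 0 of 6 lymphocyte, 0 of 7 adipocyte, 0 of 3 epicardial and 0 of 5 Schwann cell markers tested were called, with 3, 0, 9, 1, 3, 0 and 1 of them past an unadjusted p under 0.05, against the same 24.7%. With the block, 1 adipocyte marker (ADIPOQ) was called and 0 of the other 6 lists. ADIPOQ stood against most of its list, which had a median log2 fold change of -0.46 with 3 of 7 above 0, and the adipocyte sum was higher in the border zone in 1 of 6 animals (median 820.8 against 1126 CPM). The Schwann cell sum was higher there in 6 of 6 animals (median 314.6 against 202.4 CPM). The smooth muscle and pericyte sum was higher in 4 of 6 (14550 against 10780 CPM). Its r with the members was -0.26 to 0.41, and -0.22 to 0.56 without the border zone library of animal 1022. The epicardial sum was higher in 4 of 6 (49.1 against 36.0 CPM) and the lymphocyte sum in 5 of 6 (13.6 against 10.98 CPM). The part of any of these cell types in the members' differences was not tested.

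Beyond the members, 60 further genes of the axis were listed, of which 58 had an identifier and 52 passed the filter. Of the 52, 1 was called higher (ADAM12) and 0 lower by edgeR, 8 were higher and 5 lower at an unadjusted p under 0.05 (24.7% of all genes passed at that level), and their median log2 fold change was 0.05, near the 0.04 of all genes tested. In the replicate block fit, 0 of 52 were called and 18 passed at an unadjusted p under 0.05, which 29.4% of all genes did. In all 6 animals, 6 of the 52 were higher and 5 lower in the border zone, against 1619 and 1535 of all 13844 genes tested.

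ADAM12, a transmembrane and secreted metalloprotease that can cut IGFBP3 and IGFBP5, rose in the border zone by a log2 fold change of 5.31 ± 1.06 (adjusted p = 0.0293). It was 1.22 CPM in the border zone of animal 1322, 5.73 to 15.7 CPM in animals 1323, 1623, 1922 and 3622 and 169.5 CPM in animal 1022, against 0.48 to 1.54 CPM in remote tissue. The border zone was higher in 6 of 6 animals, and the regions overlapped through animal 1322. Without animal 1022 the log2 fold change was 3.11 (adjusted p = 0.016). DESeq2 gave ADAM12 no adjusted p. The call was lost with the animal as a replicate block (3.61, adjusted p = 0.0798) and without animal 1323, 1623, 1922 or 3622 (adjusted p = 0.118, 0.108, 0.0756 and 0.0839). HTRA1, a secreted serine protease that cuts IGFBP5 among other matrix proteins, had 1.91 ± 0.50 (adjusted p = 0.0582) and was higher in 6 of 6 animals. Its border zone level was 842.1 CPM in animal 1022 and 98.3 to 209.8 CPM in the other 5. Remote tissue held 46.4 to 110.9 CPM. DESeq2 and library totals put HTRA1 past the threshold. The PAPPA inhibitor STC2 had -0.48 ± 0.32 (adjusted p = 0.361) and STC1 -0.40 ± 0.41 (adjusted p = 0.573), while PAPPA2, the protease most like PAPPA, was under the filter.

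**Figure D5:**
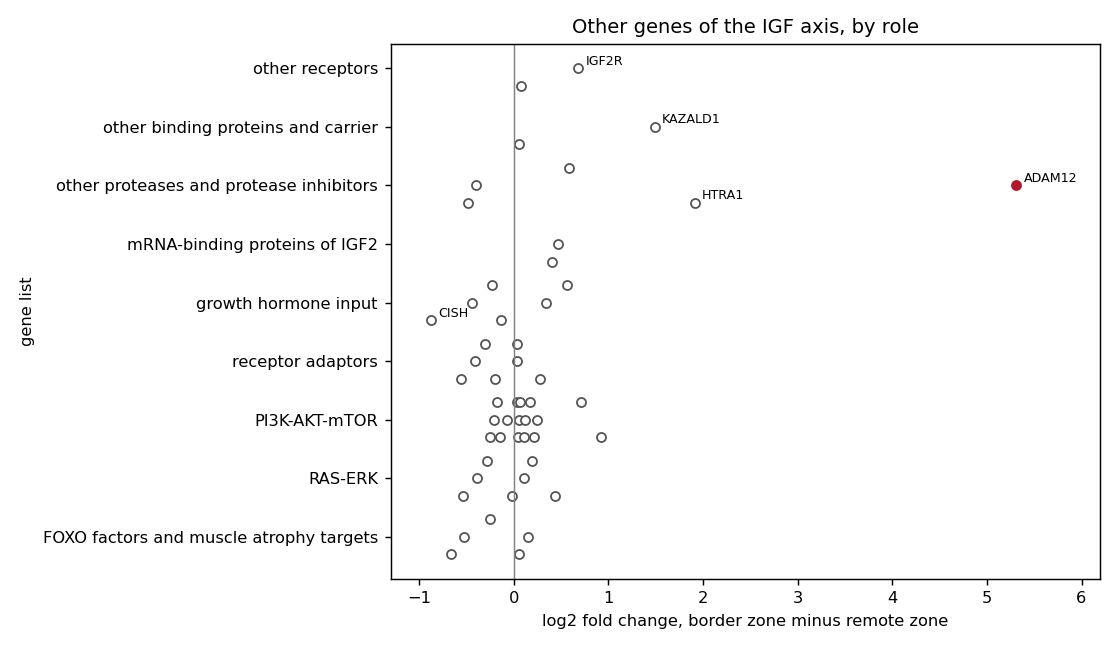
Log2 fold change, border zone minus remote zone, of the 52 other axis genes tested, grouped by role. ADAM12 (filled, 5.31) is the only gene with an adjusted p under 0.05 in the region-only fit, and the signalling lists lie around 0.

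Of the other receptors, IGF2R, which takes up IGF2 for breakdown, had 0.68 ± 0.25 (adjusted p = 0.131), with the border zone above the remote zone in 6 of 6 animals, and the insulin receptor INSR had 0.08 ± 0.29 (adjusted p = 0.894). KAZALD1, an IGFBP-related protein, had 1.49 ± 0.43 (adjusted p = 0.0761), and DESeq2 and library totals put it past the threshold. IGFALS, the carrier of the circulating IGF complex, had 0.06 ± 0.23 (adjusted p = 0.904). IGFBP1 and IGFBPL1 were under the filter. The IGF2 mRNA-binding proteins IGF2BP2 and IGF2BP3 had 0.47 and 0.40 (adjusted p = 0.174 and 0.463).

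On the growth hormone side, which drives IGF1 transcription through JAK2 and STAT5, 0 of 6 genes were called by edgeR, against 2.07% of all genes. At an unadjusted p under 0.05, 1 was higher and 2 were lower, while 24.7% of all genes passed. JAK2, the kinase bound to the growth hormone receptor, was the 1 higher, with 0.56 ± 0.26 (adjusted p = 0.198) and the border zone above in 6 of 6 animals. CISH and SOCS2, feedback inhibitors that STAT5 induces, were lower in border than in remote tissue in 6 of 6 animals. Their log2 fold changes were -0.87 ± 0.33 and -0.44 ± 0.18 (adjusted p = 0.133 and 0.155). Over all genes tested, 1619 of 13844 were higher and 1535 lower in the border zone in 6 of 6 animals. CISH was 46.9 to 165.2 CPM in the border zone and 101.7 to 299.4 CPM in remote tissue. The receptor GHR had -0.23 ± 0.40 and the transcription factor STAT5B -0.13 ± 0.19 (adjusted p = 0.765 and 0.693).

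Downstream of IGF1R, edgeR called 0 of 7 receptor adaptors and 0 of 16 PI3K-AKT-mTOR genes. It also called 0 of 7 RAS-ERK genes and 0 of 5 FOXO and atrophy genes. In the same order, 1, 2, 1 and 1 passed at an unadjusted p under 0.05. Over all genes tested, 2.07% were called and 24.7% passed at that level. The median log2 fold changes of these lists were -0.19, 0.06, -0.01 and -0.25. The adaptor IRS2 had -0.31 ± 0.42 and the kinase AKT2 -0.20 ± 0.15 (adjusted p = 0.686 and 0.431). The adaptor GRB10, the mTOR activator RHEB and the kinase MAP2K2 had -0.19, -0.25 and -0.39 (adjusted p = 0.395, 0.36 and 0.205). The muscle ubiquitin ligases FBXO32 and TRIM63, which FOXO factors induce when IGF signalling is low, had -0.25 ± 0.31 and -0.52 ± 0.29 (adjusted p = 0.65 and 0.28). These are mRNA levels, and phosphorylation of the pathway was not measured.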

How the data were processed

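From nondirectional poly(A) libraries, the authors aligned paired reads to Sscrofa11.1 with STAR and counted reads per Ensembl gene with featureCounts. The deposited values are raw counts per gene for each library, without normalization. The options for reads that match several genes are not given in the sources used here. Region and animal came from the labels. The treatment of each animal was not used. All pairs of libraries differed by more than sampling noise.

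R 4.3.3 was used with edgeR 4.0.16 (filterByExpr, TMM, robust quasi-likelihood test) and DESeq2 1.42.0, and Python 3.11.15 for summaries. CPM used TMM-scaled library sizes, and log2 CPM a prior count of 2. Standard errors were obtained as log2 fold change over the root of F. Symbols were paired with 15623 of 35682 identifiers. Total counts of 15130210 to 31618680 per library and differences between animals both limit the precision, and PCR duplicates count as reads. The edgeR fit, without and with the animal as a replicate block, was tested on simulated counts, and the other steps were not. RefSeq models of IGFBP4 and IGFBP5 hold little or no untranslated sequence, so levels were compared within a gene only.

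The members and lists were chosen with earlier results of these data known. Named are all members, called axis genes (up to 12), otherwise up to 2 per list with the highest mean log2 CPM, and the 3 genes most correlated with each member. A few items that this rule names are not reported here. STC1, PAPPA2, IGFBP1, IGFBPL1, GHR, JAK2, SOCS2, ADIPOQ and POSTN were named after their values were seen. Libraries with the same number come from 1 animal, so numbers pair them. Across genes, the mean within-animal correlation of deviations from the region means was 0.35 (from -0.03 to 0.57, over 0.1 in 4 of 6), and the IGF1 log2 fold change was 1.69 with the animal as a replicate block. Alternatives were this block, the DESeq2 Wald test, scaling by DESeq2 size factors or by library totals, dropping the filter or requiring 10 counts per library, removing mitochondrial genes, and leaving out each animal in turn or animals 1022 and 3622 together. The block without animal 1022 was added after seeing the data. For within-animal differences, a prior count of 0.5 was tried.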

Additional observations from a re-analysis of the deposited data

Results flagged for a closer look

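In 6 of the 54 groups of 6 libraries checked (the 8 members and the named axis genes in each region), 1 library lay apart from the other 5 by Dixon's criterion on log2 CPM. Chance flags about 1 in 20 groups. Among the 16 groups of the members there was 1. In the border zone, IGFBP7 in animal 1022 had a log2 CPM of 9.40, against 8.54 in the next animal, 1623. The same library was highest for IGF2R, with a log2 CPM of 8.09 against 7.19, and for HTRA1, with 9.72 against 7.71. It was lowest for TRIM63, with 6.16 against 7.67 in animal 3622. In the remote zone, animal 3622 was lowest for STC2, with 3.80 against 5.04, and for FBXO32, with 6.93 against 8.20. The same border zone library of animal 1022 held the highest fibroblast and matrix sum and the lowest cardiomyocyte sum, and the part of this in these values was not tested.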

How the results depend on the processing

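The count of members past the threshold, 1 as reported, was 0 with the animal as a replicate block, 4 by DESeq2 and by library totals, 0 without animals 1022 and 3622, 2 with the block and without animal 1022, and 0 to 2 over the fits that omit 1 animal (2 without 1322, 0 without 1323, 1623, 1922 or 3622). The count of other axis genes, 1 as reported, was 0 with the replicate block, 5 by DESeq2, 4 by library totals, 0 without a filter, 0 without animals 1022 and 3622, 4 with the block and without animal 1022, and 0 to 3 with 1 animal left out. Of 117 alternative log2 fold changes of the members, 102 kept direction and side of the threshold, 6 (all IGF1) lost the call, 8 (IGFBP4, IGFBP6, PAPPA) gained it and 1 reversed, IGF1R without animal 1322 (-0.18, the lowest of its values with 1 animal omitted, which reached 0.13). IGF1 lay between 1.36 and 2.21 in all 15 alternatives. Medians of the within-animal differences moved by less than their spread under another prior count or scaling, but that of IGF1R turned from -0.13 to 0.08 with library totals. The median over all genes was 0.04 with TMM and 0.32 with library totals. The causes were not tested.

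Over all genes, 287 were called, 41 with the block, 1724 by DESeq2 (1415 higher, 309 lower), 1551 with library totals, 139 without a filter, 149 with at least 10 counts, 163, 519, 3, 0, 15 and 0 without animals 1022, 1322, 1323, 1623, 1922 and 3622 (2662 and 2448 at an unadjusted p under 0.05 where the count was 0), 79 without 1022 and 3622, and 856 (569 higher, 287 lower) with the block and without 1022. PAPPA, with 1 to 11 reads in the remote zone, was limited by depth, and it was not tested without animal 1323 or 1623 or with at least 10 counts.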
